A study of Mus musculus with 3 samples.

Results

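Nuclear genes of oxidative phosphorylation (OXPHOS) that are named for structural subunits of its 5 complexes were followed in mouse embryonic stem (ES) cells with and without Pcgf1. Genes were taken by name, from rows of the deposited lists that carry a single gene symbol of the Nduf, Sdh, Uqcr, Cox or Atp5 families. The names selected 76 genes, of which 72 had a value in all 3 samples, out of 25350 genes with such a value. By complex, 34 of the 76 belong to complex I, 4 to complex II, 8 to complex III, 15 to complex IV and 15 carry an Atp5 name and are grouped with complex V. Since the choice is by name, not every member is a standing subunit. RefSeq lists Atp5s as Dmac2l and Atp5sl as Dmac2.

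RNA-seq was available for 1 sample each of wild-type (WT) ES cells, Pcgf1-/- ES cells and Pcgf1-/- ES cells that had been infected with a lentivirus carrying FLAG-tagged Pcgf1 (Pcgf1-/-+Pcgf1, the rescued cells). All 3 samples are of the C57BL/6 strain and were grown in serum and leukemia inhibitory factor on mitomycin-C-treated mouse embryonic fibroblasts. The Pcgf1-/- cells are a single colony-derived line in which CRISPR/Cas9 removed exons 2 and 3 of Pcgf1, and the rescued cells derive from them and were selected with puromycin. Because each condition has 1 sample, no difference below has a replicate check, no test was possible, and the 3 comparisons share their samples.

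The unit throughout is FPKM, the number of fragments scaled to transcript length and to the mapped fragments of the library, so levels can be set between genes. The lists give an FPKM to each first exon and each last exon of a gene, and the level of a gene is the larger of its summed first exons and its summed last exons. A ratio is the log2 of (FPKM + 0.1) in one sample over the other, which understates the change of low genes. Changed means a ratio past 2-fold. The depth of the libraries is unknown. Pcgf1 itself, the targeted gene, had 13.95 FPKM in WT, 5.88 in Pcgf1-/- and 7.86 in the rescued cells, so it was lowest in the knockout sample. The FPKM of a transcript includes exons outside the deletion, so this checks the labels only in part.

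In OXPHOS, complex I (NADH dehydrogenase) and complex II (succinate dehydrogenase) pass electrons to ubiquinone, complex III (cytochrome bc1) hands them to cytochrome c, and complex IV (cytochrome c oxidase) delivers them to oxygen. Complexes I, III and IV pump protons across the inner mitochondrial membrane, and complex V (ATP synthase) uses the gradient to make ATP. Most subunits are encoded in the nucleus, a few core ones in mitochondrial DNA, and the 2 sets have to be assembled together. ES cells rely heavily on glycolysis but keep an active respiratory chain. The nuclear genes are dispersed, and the factors NRF1, GABPA (an ETS factor), YY1, ERR and Sp1 are known for binding many of their promoters.

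The members with an annotated gene lay on 19 chromosomes of mm10, with between 1 and 8 members on each. Promoter sequence (RefSeq, GRCm38.p6, 250 bases before to 50 after the start) was matched for 63 of the 76 members. The shared letters searched for on both strands were GCGCATGC for NRF1, CCGGAAGT for ETS, AAGATGGC for YY1, CAAGGTCA for ERR and GGGGCGGG for Sp1. The stretches below show 1 member of each complex, the member with the highest mean FPKM among those with most of the NRF1, ETS and YY1 letters upstream of the start. Capitals mark the matching letters, and in Cox6a1 the NRF1 letters and their reverse complement overlap. Upstream is counted from the RefSeq start. For Sdhb the first exon listed in all 3 samples begins at 140961203, so its stretch lies inside that exon. The GENCODE gene of Atp5h reaches to 115419962 and takes in part of its stretch, which lies upstream of the listed first exon.
Ndufa6 (complex I, chr15:82354357-82354384, minus strand, 93 to 66 bases upstream): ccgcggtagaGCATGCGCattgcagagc
Sdhb (complex II, chr4:140961207-140961234, plus strand, 64 to 37 bases upstream): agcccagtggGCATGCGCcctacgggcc
Uqcr11 (complex III, chr10:80406870-80406897, minus strand, 76 to 49 bases upstream): tctctcctccCCGGAAGTagatgtcaat
Cox6a1 (complex IV, chr5:115349101-115349130, minus strand, 172 to 143 bases upstream): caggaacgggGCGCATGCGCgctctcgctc
Atp5h (complex V, chr11:115419941-115419968, minus strand, 49 to 22 bases upstream): caaggagagaACTTCCGGcaactctctt

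The NRF1 letters were present in 9 of the 63 members with a window (14.3%), beside 7.6% of the 4577 other genes at or above 5 FPKM in all samples and 3.0% of all 27025 genes in the table. For YY1 the shares were 15.9%, 6.3% and 3.2%, and for ERR 6.3%, 1.1% and 1.8%. For ETS the shares were 7.9%, 11.3% and 4.3%, and for Sp1 27.0%, 38.8% and 18.4%, so for these 2 the members' share lay between those of the other groups. In 29 of the 63 members none of the 5 motifs was found in the window. A match is a description of the letters and not a bound site.

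Nearly all measured members were well expressed. Of the 72 with a value in all samples, 63 were above 0 in all 3 and 61 of these were at or above 5 FPKM in all 3, the exceptions being Cox7b2 and Atp5s. The median of the 61 was 123.3 FPKM in WT, 129.6 in Pcgf1-/- and 112.8 in the rescued cells, against 20.6, 19.8 and 18.8 for the 5875 genes at or above 5 FPKM. The members together made up 2.93%, 3.07% and 2.94% of the summed FPKM of all single-named genes. In the plot of FPKM by complex, the 3 symbols of most genes lie on or beside each other while the genes span about 3 orders of magnitude.

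**Figure D1:**
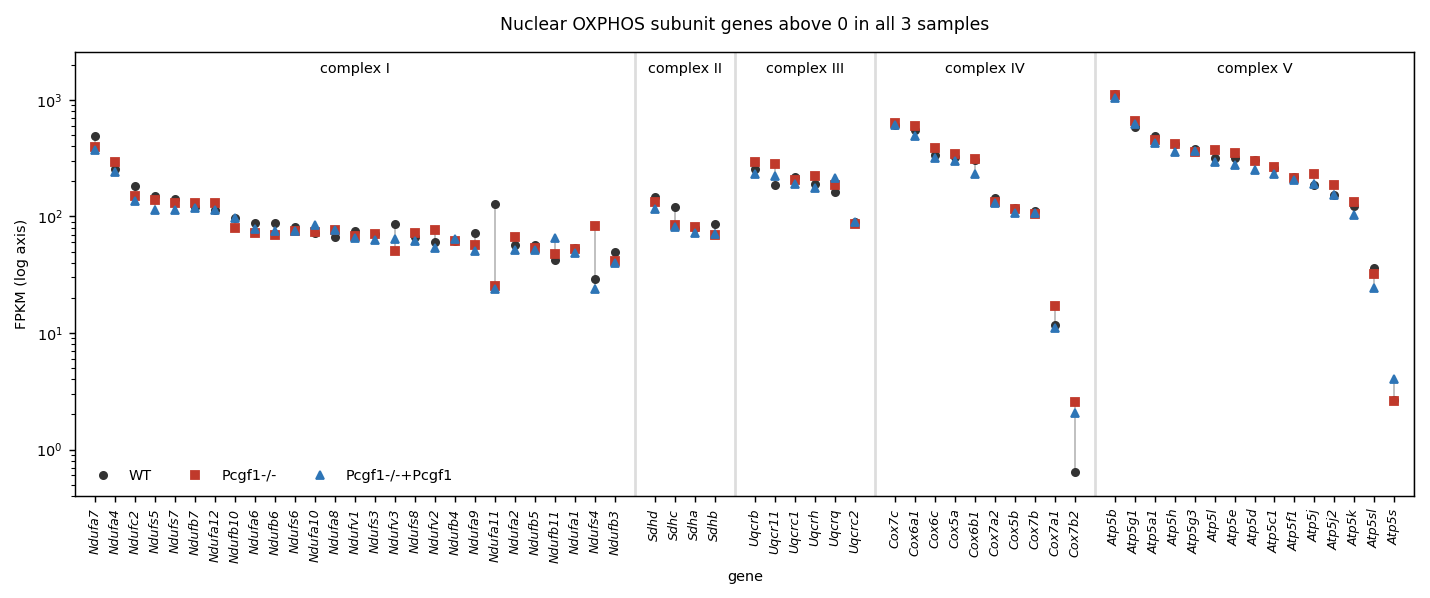
FPKM (log axis) of nuclear OXPHOS genes above 0 in all 3 samples, all but 1 of the 63, grouped by complex and ordered by mean level, with 1 point per sample (circle WT, square Pcgf1-/-, triangle Pcgf1-/-+Pcgf1) and a grey line from the lowest to the highest sample. The points of most genes nearly coincide, and Ndufa11, Ndufs4 and Cox7b2 have the long lines.

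Complex V had the highest median level and complex I the lowest in each of the 3 samples. The complex V genes had medians of 304, 297 and 250 FPKM in WT, Pcgf1-/- and Pcgf1-/-+Pcgf1, and the complex IV genes had 223, 223 and 182. Complex III followed in WT and Pcgf1-/- with 188 and 213, but lay above complex IV in Pcgf1-/-+Pcgf1 with 200.5. Complex II had medians of 103, 82.9 and 77.0 and complex I had 77.9, 73.1 and 70.0. The ranges of the complexes overlap widely, from 29.3 to 491 FPKM in WT for complex I alone.

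The most abundant members were small or catalytic subunits. Atp5b, the catalytic beta subunit of ATP synthase, had the highest level of all, with 1122, 1109 and 1039 FPKM in WT, Pcgf1-/- and Pcgf1-/-+Pcgf1. Atp5g1, one of the genes for the membrane c subunit, had 585, 655 and 623, and Atp5a1, the alpha subunit, had 494, 457 and 428. Cox7c, Cox6a1 and Cox6c led complex IV, with Cox7c at 611, 634 and 609, Cox6a1 at 555, 597 and 486, and Cox6c at 339, 386 and 320. In complex I the highest were accessory subunits: Ndufa7 had 490.5, 392.2 and 372.9 FPKM, Ndufa4, which is now placed with complex IV, had 256, 293 and 242, and Ndufc2 had 183, 149.6 and 134.9. For Ndufc2 the WT value was 138.0 on last exons, so the order of WT and Pcgf1-/- turned with the rows read.

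Few members changed more than 2-fold between Pcgf1-/- and WT cells. Of 65 members with a value in all samples and above 0 in 1 of these 2, Ndufa11 decreased, and Ndufs4, Uqcr10 and Cox7b2 increased. That is 1.54% decreased and 4.62% increased, beside 9.41% and 4.07% of all genes so treated. Among the 61 members at or above 5 FPKM in all samples, 2 (3.28%) were past 2-fold, beside 2.21% of all genes at that level. The median log2 ratio of these members was -0.02, with an interquartile range of 0.29, and that of all genes at that level was -0.06, with 0.37. There were 32 members lower and 29 higher in Pcgf1-/-. Over all 65 the median was -0.006, which turned to 0.06 after scaling of the samples by the median ratio over genes at or above 5 FPKM and to 0.05 on last-exon rows alone, so no direction can be given.

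In the rescued cells against Pcgf1-/-, 2 of 67 members decreased (Ndufs4 and Ndufa3; 2.99%) beside 4.11% of all genes. Another 2 increased (Cox8c and Cox6a2), beside 11.8% of all genes. Of the 61 well-expressed members only Ndufs4 (1.64%) was past 2-fold, beside 3.1% of all. The median log2 ratio of the 61 was -0.15, that of all genes -0.05, and 48 of the 61 (78.7%) were lower in the rescued cells, beside 57.4% of all genes at that level.

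Against WT, 2 of 67 members were lower in the rescued cells (Ndufa11 and Ndufa3), beside 4.32% of all genes. The 4 that were higher (Uqcr10, Cox8c, Cox7b2 and Cox6a2; 5.97%) stand beside 7.31%. Only Ndufa11 was among the 61, 1.64% beside 1.53% of all genes. The median log2 ratio of the 61 was -0.15 and that of all genes -0.12. The same scaling raised all log2 ratios of this comparison by 0.12, and the members' median was then -0.025.

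**Figure D2:**
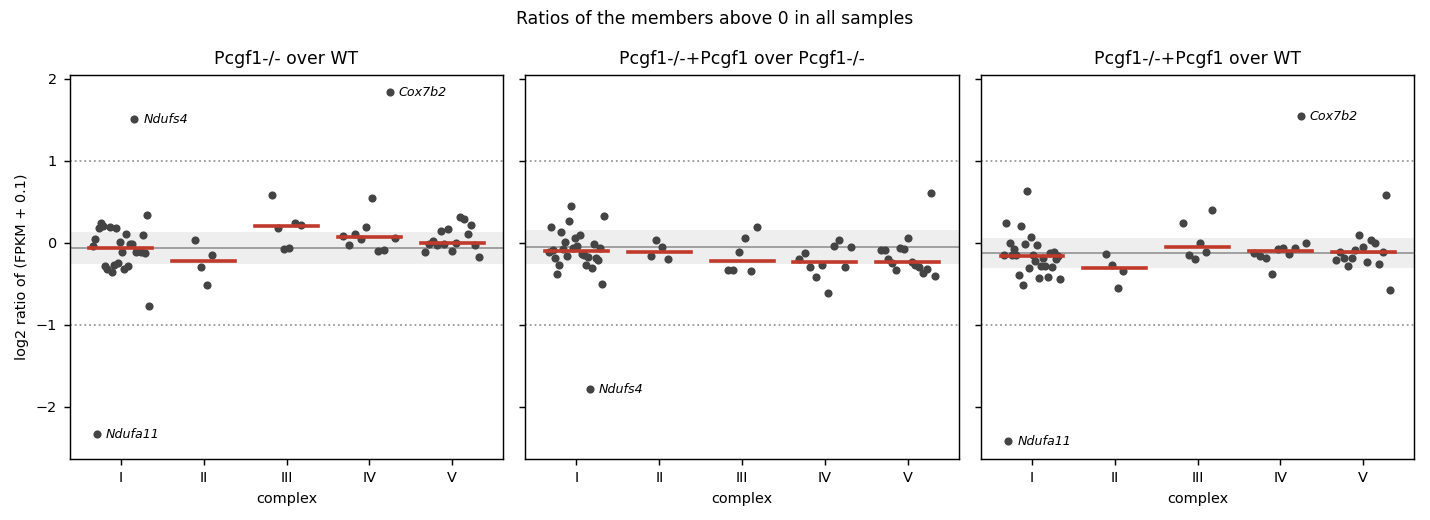
Log2 ratios of (FPKM + 0.1) in the 3 comparisons for the 63 members above 0 in all samples, 1 point per gene, by complex. Red bars are medians of a complex, the grey line and band are the median and interquartile range of all genes at or above 5 FPKM, and dotted lines mark 2-fold. All but Ndufa11, Ndufs4 and Cox7b2 lie within 2-fold in each panel.

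By complex, small shifts pointed in different ways and all lay well inside 2-fold. In Pcgf1-/- against WT the median log2 ratio was -0.07 for complex I, -0.23 for complex II, 0.20 for complex III, 0.07 for complex IV and -0.01 for complex V. In the rescued cells against Pcgf1-/- all 5 medians were below 0, from -0.24 in complex IV to -0.10 in complex I. Of the complex V genes, 13 of 15 were lower in the rescued cells than in Pcgf1-/-, and of the complex IV genes 9 of 10. Of all genes at or above 5 FPKM 57.4% were lower there, with a median of -0.05. These values are unscaled, and scaling raised all log2 ratios of the rescued cells against Pcgf1-/- by 0.06. Over the genes above 0 in either sample, the medians of complexes I and V in Pcgf1-/- against WT were -0.04 and -0.01 before scaling. After scaling, which raised the log2 ratios of this comparison by 0.07, they were 0.03 and 0.06. For complex I this set also holds Ndufa3, so its 0.03 is not to be set beside the -0.07 above. The scaled medians of complexes III, IV and V in the rescued cells against WT were 0.12, 0.05 and 0.01 over the genes above 0 in either sample, so a direction against WT cannot be given for these.

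Most members kept a similar level in the 3 samples, as did most well-expressed genes. In 39 of the 61 (63.9%) the highest sample was under 1.25 times the lowest, beside 49.6% of all genes at or above 5 FPKM. In 55 of the 61 (90.2%) it was under 1.5 times, beside 80.2%, and in 59 (96.7%) it was under 2 times, beside 95.3%. The members were higher in level and shorter than the other genes, with a median length of their protein-coding transcripts of 736 bases against 2049, and the part of either in the spread was not tested. Of the 61, 45 were lowest in Pcgf1-/-+Pcgf1, a larger share than the 47.0% of the other genes. After scaling 28 of the 61 were lowest there and 31 were highest in Pcgf1-/-, again larger shares than the 32.7% and 35.0% of the other genes.

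The values were also split by length. Members under 1000 bases (42 genes) had a median log2 ratio of 0.07 in Pcgf1-/- against WT and -0.17 in the rescued cells against Pcgf1-/-. The 640 other genes of that length had -0.07 in both. Members from 1000 up to 2000 bases (16 genes) had -0.03 and -0.13, and the 2085 other genes of that length had -0.08 and -0.06.

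In complex I, the core subunits of the matrix arm, most of which carry the flavin or iron-sulfur clusters, were near level across the samples. Ndufv1, which binds NADH, had 74.7 FPKM in WT, 68.2 in Pcgf1-/- and 64.9 in the rescued cells, and Ndufv2 had 60.2, 76.2 and 53.8. In Pcgf1-/- alone a second first exon of Ndufv2 (chromosome 17, 66106722 to 66106780) was listed, at 34.2 FPKM. On the first exon that all samples share, Ndufv2 had 60.2, 42.0 and 53.8, so its order of samples depends on which rows are read. Ndufs7, which lies at the ubiquinone site, had 140.5, 129.6 and 113.8. Ndufs3 and Ndufs8 had 71.3, 70.4 and 62.3, and 67.3, 72.0 and 61.9. In the gene values of these 5 subunits the rescued sample was the lowest, and no ratio was past 2-fold. Ndufs1, the largest core subunit, was listed at 0 in all 3 samples.

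Ndufa11, an accessory subunit of the membrane arm, had 127.7 FPKM in WT, 25.2 in Pcgf1-/- and 23.8 in the rescued cells. WT stood above both other samples, with log2 ratios of -2.34 for Pcgf1-/- and -2.42 for the rescued cells against WT. The gene (ENSMUSG00000002379) lies on the plus strand of chromosome 17 of mm10 from 56717767 to 56722141. In WT the list had 2 last exons for it, one from 56721682 to 56721982 at 116.5 FPKM and one from 56721985 to 56724248 at 11.2 FPKM. The other samples listed only the second of these, at 25.2 and 23.8 FPKM. That exon runs 2107 bases past the annotated end and overlaps no other annotated gene. The first exon was the same in all 3 samples. The fall of the gene was thus listed together with the absence of 1 last exon, while the other last exon was higher in Pcgf1-/- and the rescued cells than in WT.

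Ndufs4, an accessory subunit whose loss in mice gives a complex I deficiency, had 29.3 FPKM in WT, 83.5 in Pcgf1-/- and 24.0 in the rescued cells. Pcgf1-/- stood above both other samples, with log2 ratios of 1.51 for Pcgf1-/- against WT and -1.79 for the rescued cells against Pcgf1-/-. The gene (ENSMUSG00000021764) lies on the minus strand of chromosome 13 from 114287795 to 114388258. Its annotated last exon, 114287795 to 114288866, had 29.3, 7.70 and 24.0 FPKM. In Pcgf1-/- alone a second last exon of 29 bases was listed, from 114284797 to 114284825, which carried 75.8 FPKM. It reaches 2998 bases past the annotated end and overlaps no annotated gene. On the annotated last exon Pcgf1-/- was thus the lowest sample, whereas on the sum over last exons it was the highest.

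**Figure D3:**
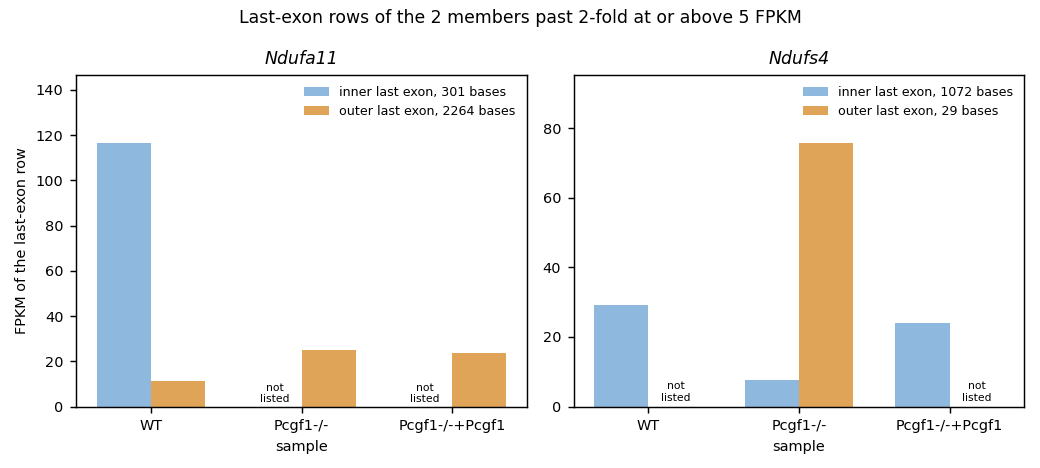
FPKM of each last-exon row of Ndufa11 (left) and Ndufs4 (right) in the 3 samples, with blue bars for the inner last exon and orange bars for the outer one. The inner exon of Ndufa11 was listed in WT only, and the outer exon of Ndufs4 in Pcgf1-/- only.

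First and last exons were matched between samples by their splice side, the end that joins the neighbouring exon. Their outer ends could differ, as in Atp5b. Of all 11743 genes above 0 in all samples, 7039 had the same first and last exons in all 3 by this match. Of the 63 members above 0 in all samples, 56 did. The other 7 did not (Atp5s, Ndufa10, Ndufa11, Ndufa9, Ndufb11, Ndufs4 and Ndufv2). Both members at or above 5 FPKM that passed 2-fold, Ndufa11 and Ndufs4, were among these 7. Among the 56, only Cox7b2 passed 2-fold in a comparison, and the next largest ratio of highest to lowest sample was 1.71, in Ndufv3. What part the different exon lists have in the 2 changes was not tested.

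Below 2-fold, the complex I members with the largest decreases in Pcgf1-/- were Ndufv3 and Ndufa9. Ndufv3, a subunit beside the NADH site, had 86.8, 50.9 and 64.0 FPKM in WT, Pcgf1-/- and Pcgf1-/-+Pcgf1, and was lowest in the knockout (log2 -0.77). It is known to have a long and a short form, and a long exon (chromosome 17, 31527310 to 31528401) was contained in transcripts of 9.13, 6.93 and 7.57 FPKM and skipped in those of 77.7, 44.0 and 56.4. The form without the exon was thus the major one in each sample, and it carried most of the difference. Ndufa9, whose product lies near the ubiquinone site, had 72.8, 56.8 and 50.7 FPKM on its last exons. On its first exons it had 41.1, 56.8 and 50.7, with WT the lowest sample, so its direction depends on which rows are read.

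All 4 complex II genes were expressed between 69.7 and 146.4 FPKM. Sdha, the flavoprotein, had 80.0 FPKM in WT, 81.6 in Pcgf1-/- and 72.6 in the rescued cells. Sdhb, the iron-sulfur protein, had 86.0, 69.7 and 71.0. The membrane anchors Sdhc and Sdhd had 120.2, 84.3 and 81.5, and 146.4, 131.9 and 115.1. WT was the highest sample for 3 of the 4, and Sdhc had the largest decrease (log2 ratio -0.51 in Pcgf1-/- against WT). The rescued value of Sdhc did not return toward WT.

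For Sdhc, an exon on chromosome 1 (171143558 to 171143659) was both used and skipped in every sample. Transcripts with it had 61.4, 50.01 and 51.2 FPKM in WT, Pcgf1-/- and Pcgf1-/-+Pcgf1, and transcripts without it had 58.7, 34.3 and 30.3. Both forms were highest in WT, and the form without the exon differed more between samples.

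In complex III, the core proteins Uqcrc1 and Uqcrc2 had 216, 205 and 189 FPKM, and 90.3, 86.6 and 90.1 FPKM. Uqcrfs1, the Rieske iron-sulfur protein, was listed at 0 in all 3 samples. The small subunits were higher in Pcgf1-/- than in WT. Uqcr11 had 188, 281 and 222 FPKM (log2 ratio 0.58), Uqcrb had 257, 291 and 231, Uqcrh had 188, 221 and 174, and Uqcrq had 161, 186 and 212. Of these 4, 3 were highest in Pcgf1-/- and Uqcrq was highest in the rescued cells, and no ratio reached 2-fold. Uqcr10, another small subunit, was listed at 0 in WT and had 40.4 and 38.8 FPKM in the other samples.

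In complex IV, Cox5a and Cox5b, which surround the catalytic core, had 326, 346 and 299.6 FPKM, and 119.0, 116.5 and 106.4. The values of the highest 3 genes were given above, and none of the broadly expressed subunits above 0 passed 2-fold in a comparison. Cox4i1 was not analysed here.

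Several complex IV subunits exist as a broadly expressed form and as a form known from muscle, lung or testis. Cox6a1 had 555, 597 and 486 FPKM in WT, Pcgf1-/- and Pcgf1-/-+Pcgf1, whereas the muscle form Cox6a2 was listed at 0, 0 and 0.12. Cox7a2 had 143, 133 and 129.6, and the muscle form Cox7a1 had 11.6, 17.0 and 11.1, with Pcgf1-/- highest (log2 ratio 0.55 against WT). Cox4i2, a form known from lung and not covered by the gene names, had 4.10, 4.09 and 3.25. In the Cox6a and Cox7a pairs the broadly expressed form was thus the higher one in every sample, while Cox4i2 has no measured partner here.

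Of the testis forms, Cox7b2 and Cox8c were low in level and differed between samples. Cox7b had 111, 104.4 and 106.5 FPKM, and its testis form Cox7b2 had 0.64, 2.56 and 2.07. Cox7b2 was lowest in WT, with log2 ratios of 1.84 for Pcgf1-/- and 1.54 for the rescued cells against WT, and its first and last exons were the same in all samples. The second of these ratios was 0.90 with 1 FPKM added in place of 0.1. Cox8c, also a testis form, was listed at 0, 0 and 0.90 FPKM, and the broadly expressed Cox8a and the muscle form Cox8b were listed at 0 in all 3.

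Cox6b1 had 303, 312 and 234 FPKM. Its testis form Cox6b2 had 38.01 FPKM in WT. In Pcgf1-/- it had 13.4, which is -1.50 on the log2 scale against WT, and it has no value by the rule in the rescued cells, where its locus carries a second name, Fam71e2, so it is not in the counts above. On the same first-exon row it had 30.3, 13.4 and 34.5 FPKM in the 3 samples, the last under both names. Pcgf1-/- was thus the lowest sample on that row as well. Of the testis germ cell markers Prm1, Prm2, Tnp1, Acr and Ddx4, only Ddx4 was above 1 FPKM in a sample, with 7.01, 8.88 and 26.1. The muscle markers summed to 0.36, 0.21 and 0.88 FPKM.

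**Figure D4:**
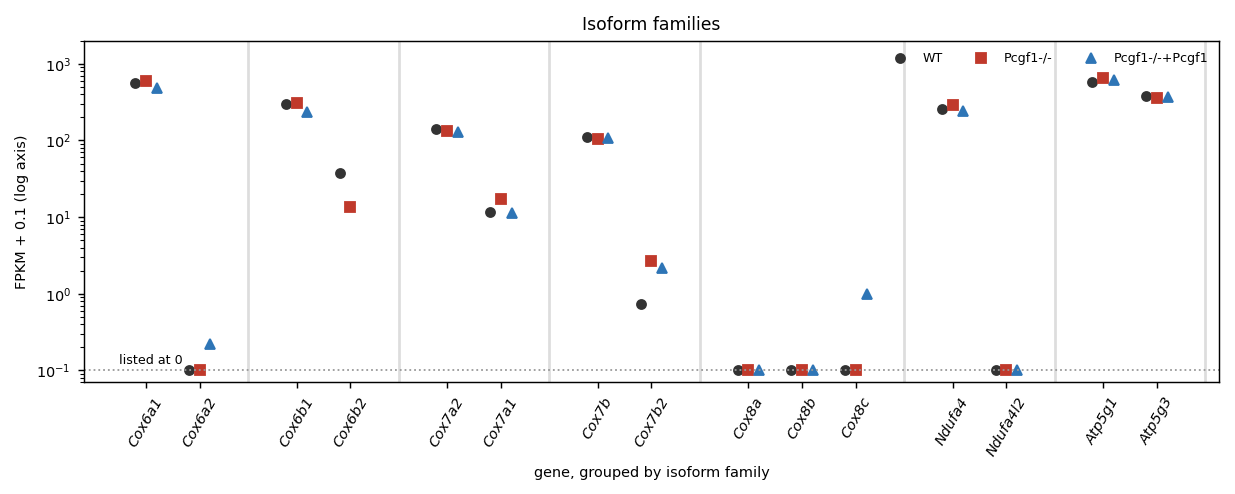
FPKM + 0.1 (log axis) of isoform families, 1 point per sample (circle WT, square Pcgf1-/-, triangle Pcgf1-/-+Pcgf1), where the dotted line marks genes listed at 0. Cox6a1, Cox6b1, Cox7a2, Cox7b and Ndufa4 lie above the tissue forms beside them in each sample with a value, and in the Cox8 family only Cox8c has a point above 0.

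Of complex V, Atp5c1, the gamma subunit of the rotor, had 261, 264 and 229 FPKM. Atp5g3, the other c-subunit gene analysed, had 382, 355 and 368 and lay below Atp5g1 in every sample, and Atp5g2 was not analysed here as a single name. Of the 15 genes, 7 were higher and 8 lower in Pcgf1-/- than in WT. Atp5j (184, 229 and 189), Atp5j2 (154, 188 and 153) and Atp5l (319, 371 and 296), of the peripheral stalk and membrane part, had their highest FPKM in Pcgf1-/-, as did Atp5e (315, 349 and 276), the epsilon subunit of the central stalk. Atp5f1 (217, 215 and 205) and Atp5h (421, 419.5 and 356), also of the peripheral stalk, were highest in WT. Each of these 6 differed by under 1.5 times. Atp5s, a coupling factor gene whose product is not a standing subunit, had 2.645, 2.599 and 4.002.

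Besides Cox6a2 and Cox8c, 2 members were listed at exactly 0 in some samples although they were well expressed in others. Uqcr10 was at 0 in WT only, as described, and Ndufa3, an accessory subunit of complex I, had 40.4 and 42.6 FPKM in WT and Pcgf1-/- and 0 in Pcgf1-/-+Pcgf1. A further 5 were at 0 in all 3 (Ndufs1, Uqcrfs1, Cox8a, Cox8b and Ndufa4l2), among them subunits that every respiring cell uses. In a list of FPKM without counts an exact 0 can be a failed estimate, so no fold change is given for these genes, although the pseudocount places Uqcr10, Ndufa3, Cox6a2 and Cox8c among the called members above.

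Near-identical annotated pseudogene copies (at least 90% identity over at least 50% of the main transcript) were found for 14 of the 75 members with an annotated gene, most for Atp5l with 12 and Atp5h with 5. Ndufa11 has 1 such copy, at 94.8% identity, and Ndufs4 none. How reads of copies were assigned is not given in the sources used here, so values of these 14 genes are less certain. None of the 9 members listed at 0 in some or all samples has such a copy.

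Of the other genes of the pathway, Ndufab1, the acyl carrier protein of complex I, had 349.6, 149.4 and 63.9 FPKM. Its first-exon rows gave these sums, while its last-exon rows summed to 20.6, 17.0 and 63.9, so its order of samples depends on which rows are read. Usmg5, a small ATP synthase subunit, had 356, 466 and 288, and Atpif1, the inhibitor of ATP synthase, had 464, 447 and 345.

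Assembly factors, which build the complexes and are not part of them, were lower in level than the subunits, with a median of 14.5, 13.5 and 14.7 FPKM over 36 genes. Of 30 above 0, 1 decreased in Pcgf1-/- (Ndufaf4, a complex I factor, with 11.97, 3.83 and 5.93 FPKM; log2 ratio -1.62) and none increased, which is 3.33% beside 9.41% and 4.07% of all genes. Ndufaf4 was also below WT in the rescued cells (log2 ratio -1.003). In the rescued cells against Pcgf1-/-, 2 of 30 increased (6.67%), beside 11.8% of all genes. These were Cox15, which makes heme a, with 12.3, 7.88 and 16.0 FPKM, and Sdhaf3 with 1.318, 0.917 and 2.198. The list had a median log2 ratio of -0.16 in Pcgf1-/- against WT and 0.08 in the rescued cells against Pcgf1-/-. The members at or above 5 FPKM had -0.02 and -0.15.

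None of 17 genes of electron carriers and coenzyme Q synthesis passed 2-fold in any comparison, with median log2 ratios of -0.17 in Pcgf1-/- against WT and 0.27 in the rescued cells against Pcgf1-/-. Cytochrome c (Cycs) had 28.1, 27.8 and 38.7 FPKM, and its testis form Cyct had 57.4, 45.6 and 72.6. None of 17 citric acid cycle genes passed 2-fold either, with medians of -0.004 and -0.04. Of all genes at or above 5 FPKM in all samples, 2.21% were past 2-fold in Pcgf1-/- against WT. The shares were 3.1% in the rescued cells against Pcgf1-/- and 1.53% against WT, so none of 17 does not set either list apart. Citrate synthase (Cs) had 138, 111 and 109 (23.8 on last exons in Pcgf1-/-), and Mdh2 had 285, 292 and 287.

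Of 60 mitochondrial ribosomal protein genes above 0, Mrps26 (91.9, 34.0 and 46.7 FPKM) and Mrps35 (51.9, 10.8 and 28.6) decreased in Pcgf1-/- and none increased, 3.33% beside 9.41% and 4.07% of all genes. The list was well expressed, with a median of 50.1 FPKM in WT. Among all genes at or above 5 FPKM in all samples, 2.21% were past 2-fold either way, so 3.33% was no smaller a share at that level. The fall of Mrps35 was on its first exons, and its last exons had 10.4, 10.8 and 28.6 FPKM. Mrps35 increased in the rescued cells against Pcgf1-/- (log2 ratio 1.39). The median log2 ratio of the list was -0.08 and then 0.02.

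Of 20 regulators above 0, 1 increased and 1 decreased in Pcgf1-/- against WT (5.0% each), beside 4.07% and 9.41% of all genes. In the rescued cells against Pcgf1-/-, 1 of 22 increased and 1 decreased (4.55% each), beside 11.8% and 4.11%. Myc, a transcription factor that acts on many growth and mitochondrial genes, had 30.3, 65.5 and 23.2 FPKM, highest in Pcgf1-/- (log2 ratio 1.11 against WT, and -1.50 in the rescued cells against Pcgf1-/-). Tfb1m, which methylates mitochondrial ribosomal RNA, had 21.3, 8.89 and 18.1, lowest in Pcgf1-/- (log2 ratios -1.25 and 1.02). Of the factors whose letters were searched for in the promoters, none with a value passed 2-fold, with Nrf1 at 30.2, 29.6 and 25.7, Gabpa at 30.2, 31.9 and 29.2, Yy1 at 26.0, 30.0 and 25.7, and Esrrb, one of the ERR genes, at 85.3, 94.8 and 77.2 FPKM. Sp1 was not analysed here. Tfam, which packages mitochondrial DNA, had 21.8, 18.9 and 19.4, and the coactivator Ppargc1a was listed at 0, 0 and 0.01.

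**Figure D5:**
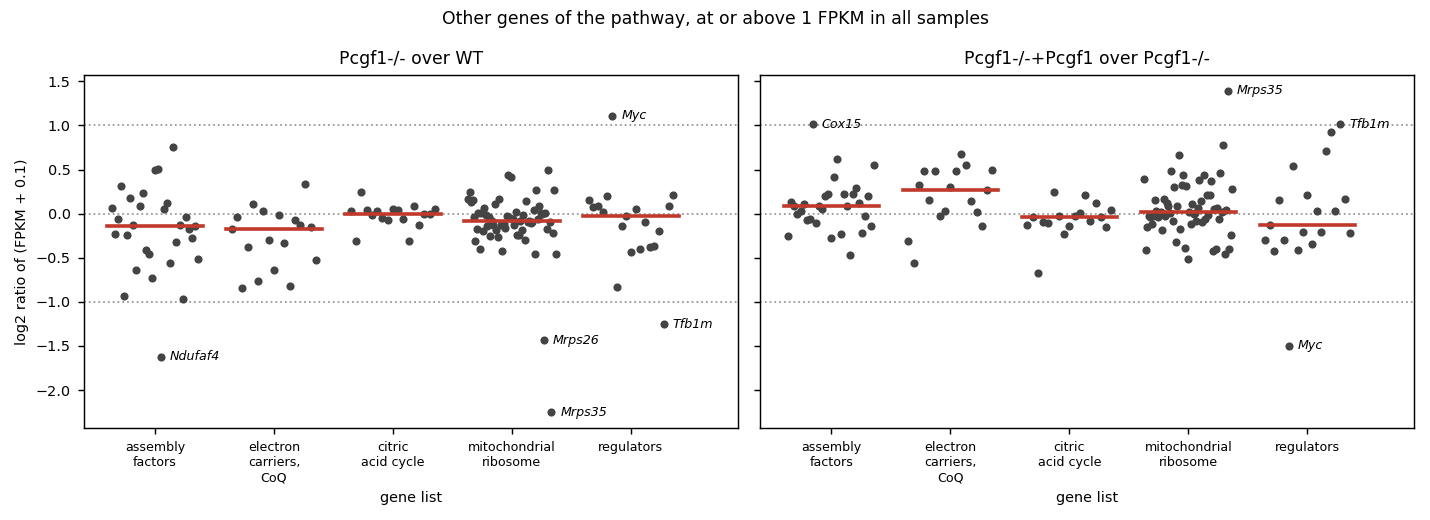
Log2 ratios of (FPKM + 0.1) for genes of 5 other lists that were at or above 1 FPKM in all samples, 1 point per gene, in Pcgf1-/- over WT (left) and Pcgf1-/-+Pcgf1 over Pcgf1-/- (right), with red bars for medians and dotted lines at 0 and 2-fold. Named points are past 2-fold, among them Myc and Tfb1m, which lie on opposite sides in the 2 panels.

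The cultures held feeder fibroblasts, and bulk RNA cannot tell fewer cells of a type from less RNA per cell. Of the ES cell markers Pou5f1, Nanog, Esrrb and 3 others, none was past 2-fold in Pcgf1-/- against WT. Of all genes at or above 5 FPKM in all samples 2.21% were, so none of 6 is near that share. Among these markers only Nanog (68.2, 46.3 and 123.0 FPKM) increased in the rescued cells against Pcgf1-/-. That is 16.7%, beside 11.8% of all genes. Of 10 feeder fibroblast markers above 0, 4 decreased in Pcgf1-/- against WT (Col1a1, Col1a2, Thy1 and Pdgfrb) and none increased. That is 40.0% decreased, beside 9.41% of all genes. In the rescued cells against Pcgf1-/-, 4 increased (Col1a1, Col1a2, Thy1 and Fbn1; 40.0%), beside 11.8% of all genes. Of those named only Thy1 reached 5 FPKM, with 14.2, 6.39 and 13.5, while Col1a1 had 1.88, 0.39 and 2.21. Dcn (0.35, 0.78 and 1.18) and Loxl1 (1.41, 1.80 and 2.46) went the other way in Pcgf1-/-, within 2-fold. The summed level of the feeder fibroblast markers was 169.4 FPKM in WT, 117.5 in Pcgf1-/- and 125.1 in the rescued cells. Most of it was Fn1 and Vim, and Postn was at 0 in all 3. The part of the fibroblasts in the OXPHOS values was not tested.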

How the data were processed

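Members and gene lists were chosen with earlier results of these data known. The authors aligned reads to mm10 with TopHat. The submitters' processing notes name TopHat2 2.0.12, Cufflinks 2.2.1 and HTSeq 0.6.0. For every sample the authors deposited events (first and last exons, skipped exons, retained introns), each with an FPKM, and the program that made these lists is not given in the sources used here. No counts or depths were in these lists, so no count test was run, and with 1 sample per condition no test was possible.

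Rows with several names were left out, which leaves Ndufa13, Ndufb2, Ndufb8, Atp5g2 and Atp5o not analysed here. Mitochondrially encoded subunits were also not analysed here, and 1 member that is in the counts is not reported here by name. Ratios used a pseudocount of 0.1 FPKM, and genes above 0 in 1 of the 2 samples entered a comparison. Annotation was GENCODE vM21 (mm10), and copies were sought with blastn 2.17.0. Python 3.11.15 with pandas 2.3.3, numpy 2.4.6 and matplotlib 3.10.9 was used.

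The named members are those past 2-fold with at least 1 FPKM, those at exactly 0 in 1 or 2 samples, the 5 most decreased and 5 most increased in Pcgf1-/- against WT at or above 1 FPKM, the 3 highest of each complex, core subunits and isoform pairs. Other genes named are list members past 2-fold. Small subunits of complexes III and V with higher values in Pcgf1-/-, and list genes within 2-fold, were named after their values were seen, as was Atp5s. Atp5sl was named for its RefSeq symbol. Alternatives were 2 other pseudocounts, first-exon or last-exon rows alone, median-of-ratios scaling, a minimum of 5 FPKM and leaving out genes at 0. A setting with genes whose first and last exons match at the splice side in all samples was added after the data were seen.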

Additional observations from a re-analysis of the deposited data

Results flagged for a closer look

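A few rows of the members lay outside the gene values used above and were above 0 where the other samples had no value or a lower one. For 4 genes the locus carried a second gene name in 1 sample. Cox6b2 in Pcgf1-/-+Pcgf1, listed with Fam71e2, had 34.5 FPKM on its first-exon row and 40.1 FPKM on its last-exon row. Ndufa5 in WT, listed with Iqub, had 22.4 FPKM on its first exon, and the same row under its own name had 20.04 FPKM in Pcgf1-/- and 18.00 in the rescued cells. Ndufb9 in Pcgf1-/-+Pcgf1, listed with Rnf139, had 128.4 FPKM on its last exon, beside 142.6 and 135.5 FPKM in WT and Pcgf1-/-. Ndufc1 in Pcgf1-/-, listed with Gm9442, had 45.9 FPKM on the first-exon row and 10.8 FPKM on the last-exon row, beside 16.1 FPKM in WT and 14.8 in the rescued cells on both rows.

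Other exon forms appeared in 1 of the 3 samples. For Ndufa10, a skipping form of an exon at chromosome 1 (92470817 to 92470985), which contains a shorter variant (92470951 to 92470985), had 31.3 FPKM in Pcgf1-/- only, and the shorter variant was included at 21.3 FPKM in Pcgf1-/-+Pcgf1 only. For Sdhc, an exon on the same chromosome at 171145756 to 171145812 was listed in Pcgf1-/- only, included at 36.7 and 13.3 FPKM in 2 rows. None of the 8 retained-intron events of the members had the intron above 0 in any sample. No difference between samples was tested for these rows, since each sample is single.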

How the results depend on the processing

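Leaving out a replicate was not possible, since no condition has a second sample, and no paired analysis was possible because the labels carry no replicate numbers. With only genes whose first and last exons match in all samples, a setting chosen after seeing the data, 0 members decreased and 1 increased in Pcgf1-/- against WT, 0 and 0 changed in the rescued cells against Pcgf1-/-, and 0 decreased and 1 increased against WT. Of all 7039 genes so chosen, 5.07% decreased and 2.33% increased in Pcgf1-/- against WT. In the rescued cells 2.47% and 6.58% of them did so against Pcgf1-/-, and 1.90% and 3.44% against WT. No test stands behind these counts and shares. A pseudocount of 1 FPKM or a minimum of 5 FPKM left 0 members increased in the rescued cells against Pcgf1-/- and 1 against WT. Of all genes, 2.70% and 3.18% increased against Pcgf1-/- with these 2 settings, and 1.37% and 1.68% against WT. Without genes at 0 in a sample, 1 decreased and 0 increased against Pcgf1-/-, and 1 and 1 against WT. The shares of all genes were then 3.29% and 8.8% against Pcgf1-/-, and 2.85% and 4.73% against WT. Median-of-ratios scaling moved the members' median in the rescued cells against WT to -0.025. Of 48 counts, 34 stayed within 1.5 times, and of 24 medians of the members 23 stayed within 0.1. Of 119 ratios of the members past 2-fold in any comparison, 5 were no longer past 2-fold and none past 2-fold changed direction. Within 2-fold, Uqcr10 in the rescued cells against Pcgf1-/- moved from -0.06 to 0.0006 with scaling. Other members, such as Ndufa9 and Ndufc2, were not among these ratios. Depth is unknown, so low values such as those of Cox7b2 and Cox8c have no counting error attached.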
